A study of Mus musculus with 15 samples.

Results

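Chemokines are small secreted proteins that guide the movement of cells, above all leukocytes, along gradients of concentration. They act through G-protein-coupled receptors, named CCR, CXCR, XCR1 and CX3CR1 after the spacing of cysteines in their ligands, while atypical receptors of the ACKR family bind and remove chemokines without classical signalling through G proteins. In the vessel wall, inflammatory chemokines such as CCL2 are known for drawing monocytes and T cells into the adventitia and the surrounding fat, whereas lymphoid chemokines such as CXCL13, CCL19 and CCL21 are known for arranging B and T cells in lymph nodes. The genes described here were the chemokines and chemokine receptors of the mouse, chosen by symbol, and they numbered 61 of the 34714 genes in the deposited table. There were 25 CC ligands, 12 CXC ligands, 2 ligands of other classes (Cx3cl1 and Xcl1), 18 receptors and 4 atypical receptors.

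Aortas of WT mice were sequenced in 3 groups of 5 libraries. The AngII + RvE1 group received an infusion of angiotensin II (AngII) at 750 ng/kg per minute together with intraperitoneal resolvin E1 (RvE1), a lipid mediator known for its part in ending inflammation, at 2 µg/kg per day. The AngII group received the infusion alone, and the Sham group is labelled only as such. Strain, sex, age, duration of infusion and whether each library came from its own animal are details that the labels do not state, so a p-value covers the spread between libraries, which may be partly technical. Values are taken to be FPKM, a measure scaled to transcript length and library size, although the table names no unit, and the read depth behind them is unknown.

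The libraries stood apart within the AngII group. In a principal component analysis, the first component held 41.1% of the variance of the tested genes, and on it AngII libraries 3, 5 and 4 lay at 78.9, 75.8 and 32.9 and the other 12 libraries between -28.9 and 2.37. Smooth muscle markers, 9 genes that define the main cell of the aortic wall, were present throughout and summed to 5426 to 9754 FPKM in AngII + RvE1, 1234 to 3435 FPKM in AngII and 1775 to 12310 FPKM in Sham. Adipocyte markers were abundant in every library as well (6197 to 17907 FPKM over 6 genes). The summed B cell markers (9 genes) reached 799, 246 and 1224 FPKM in AngII libraries 3, 4 and 5, and lay between 2.96 and 40.3 FPKM in the other 12 libraries. Differences of called chemokine and receptor genes are therefore given with and without these 3 libraries.

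A pair of near-identical genes limits what can be said of Ccl21. CCL21 is the ligand that brings CCR7-bearing T cells and dendritic cells into lymph nodes, and the mouse carries several copies on chromosome 4. Ccl21a (chr4:42772860-42773993, minus strand) encodes the form with serine and Ccl21b (chr4:42255767-42256432, plus strand) the form with leucine at the residue by which they are usually told apart. Their coding sequences in the GENCODE transcripts of GRCm38 matched at all but 2 of 402 bases (99.5% identity), and the stretch from base 64 to base 214 is shown 5′ to 3′ because it holds both differences, which are in capitals.
Ccl21a: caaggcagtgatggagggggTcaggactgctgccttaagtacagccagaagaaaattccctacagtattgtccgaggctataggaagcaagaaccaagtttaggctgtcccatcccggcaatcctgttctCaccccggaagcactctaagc
Ccl21b: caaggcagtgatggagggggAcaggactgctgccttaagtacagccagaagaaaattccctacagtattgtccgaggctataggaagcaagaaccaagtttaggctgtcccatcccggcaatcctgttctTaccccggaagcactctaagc
Within the coding sequence, reads from Ccl21a and Ccl21b can be divided between them only at the differing bases. The coding sequences of Ccl21c and Ccl21d were not compared. The values of Ccl21a, Ccl21b, Ccl21c and Ccl21d are taken as uncertain singly and are also given as their sum.

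The promoters of Ccl8 and Cxcl13 are shown because these ligands were among the most altered. Each runs from 250 bases before to 50 bases after the start in RefSeq (GRCm38.p6, plus strand), chr11:82114935-82115234 for Ccl8 and chr5:95956689-95956988 for Cxcl13, with the letters TATAAA in capitals.
Ccl8: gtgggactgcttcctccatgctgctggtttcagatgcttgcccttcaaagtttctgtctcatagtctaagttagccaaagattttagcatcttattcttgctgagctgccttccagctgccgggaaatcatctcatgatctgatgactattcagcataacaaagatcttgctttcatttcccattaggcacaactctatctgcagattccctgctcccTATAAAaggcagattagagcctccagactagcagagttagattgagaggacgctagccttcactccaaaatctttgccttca
Cxcl13: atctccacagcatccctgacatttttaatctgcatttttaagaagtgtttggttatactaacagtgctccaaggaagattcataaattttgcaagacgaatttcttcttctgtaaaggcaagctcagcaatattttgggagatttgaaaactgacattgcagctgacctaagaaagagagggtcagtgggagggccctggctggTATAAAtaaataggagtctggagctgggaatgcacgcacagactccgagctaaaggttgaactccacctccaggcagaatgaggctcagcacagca
Of the 61 genes, 46 were matched in the RefSeq promoter table, with 53 promoters. Searched on both strands, TATAAA occurred in 14 of the 53 (26.4%), against 13.6% of all 32851 promoters of the same length. The NF-kappaB consensus was found in 12 of them (22.6%), against 8.46% of all promoters. The ISRE core GAAANNGAAA occurred in 3 (5.66%, those of Ccl19, Cxcl10 and Cxcl14), against 3.44% of all, and the GAS core TTCNNNGAA in 3 (5.66%), against 8.3% of all. Such matches describe letters only, and neither the Ccl8 nor the Cxcl13 window held the last 3 motifs.

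Of the 61 genes, 31 reached a value of at least 1 FPKM in at least 5 libraries and were tested: 16 CC ligands, 7 CXC ligands, Cx3cl1, the receptors Ccr2, Ccr10 and Cxcr4, and all 4 atypical receptors. The other 30 were not tested. Among these, Ccl26 was listed at 0 in every library, 10 genes in all reached 1 FPKM in no library, and 13 reached it only in AngII library 3, 4 or 5. Receptors were thus mostly low, 15 of 18 being left out.

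In AngII + RvE1 and Sham aortas the same homeostatic ligand led. Cxcl12, which holds CXCR4-bearing leukocytes and progenitors in tissues, averaged 49.6 ± 7.41 FPKM in AngII + RvE1, 86.9 ± 46.1 FPKM in AngII and 52.1 ± 19.6 FPKM in Sham (SD, n = 5 each). After it came Ccl6, a CC ligand of macrophages found in rodents, and Ccl11 (eotaxin), which attracts eosinophils, in both AngII + RvE1 (17.8 and 16.1 FPKM) and Sham (21.0 and 18.3 FPKM). In AngII the order of means differed, with Ccl21a at 105.6, Cxcl12 at 86.9, Ccl6 at 72.02, Ccl8 at 67.0 and Ccl5 at 65.2 FPKM, but the spread within that group was wide. Among receptors Ackr3, the scavenger of CXCL12, had the highest mean in all 3 groups (46.0 FPKM in AngII + RvE1, 42.4 in AngII and 58.7 in Sham). All ligands together summed to 128 to 182 FPKM in AngII + RvE1 libraries, to 170, 227, 1263, 476 and 1046 FPKM in AngII libraries 1 to 5, and to 119 to 250 FPKM in Sham libraries. Only AngII libraries 3, 4 and 5 lay above the highest Sham sum. In bulk tissue, fewer cells of a type and less RNA per cell cannot be told apart.

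**Figure D1:**
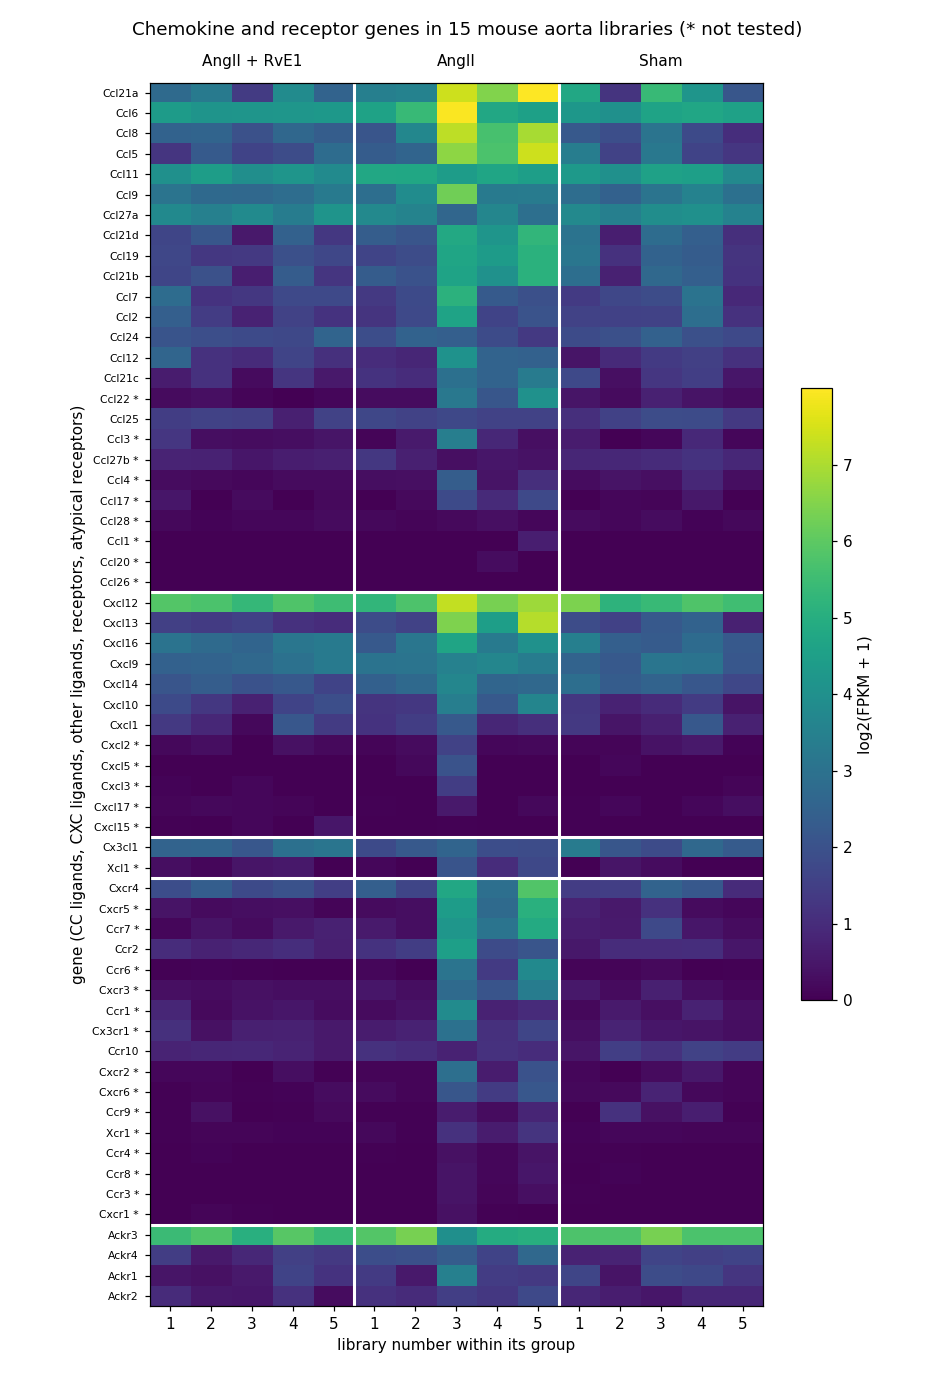
Heat map of 60 of the 61 genes (rows, by class and then by mean level) in the 15 libraries (columns, AngII + RvE1, AngII and Sham from left to right), coloured by log2(FPKM + 1), with an asterisk at genes not tested. Bright columns at AngII libraries 3, 4 and 5 show where lymphoid and inflammatory genes were high, while Cxcl12 and Ackr3 were high in every library.

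The effect of the infusion was read from AngII against Sham. Of the 31 tested genes, Ccl8 was called higher by limma (adjusted p at most 0.05) and none lower. Across all 12603 tested genes, 2.36% were called higher and 0.809% lower, so 1 of 31 is close to that background. Before adjustment, 17 of the 31 had p under 0.05 and were higher in AngII, and 0 were lower, against 19.7% higher and 6.51% lower of all tested genes. In all, 26 had a positive log2 difference. The median difference was 0.82 over the 31 genes and 0.11 over all tested genes.

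Ccl8 (chromosome 11) encodes a CC ligand of the monocyte chemoattractant group, known in the mouse as an agonist of CCR8. It measured 4.77, 4.99, 2.93, 5.36 and 4.15 FPKM in AngII + RvE1 libraries 1 to 5, then 3.35, 11.95, 147, 50.4 and 123 FPKM in AngII libraries and 3.73, 2.76, 7.50, 2.49 and 1.05 FPKM in Sham libraries. AngII libraries 3, 4 and 5 stood far above all others, library 2 was somewhat higher than Sham, and library 1 lay within the Sham range. The log2 difference of AngII from Sham was 3.12 ± 0.76 (SE, limma adjusted p = 0.0403, n = 5 each). The call held without AngII library 1, AngII library 2 or Sham library 3 and was lost without any one of the other 12 libraries. Without AngII libraries 3, 4 and 5 the difference was 0.89, with a limma adjusted p of 0.784.

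Several others came near the threshold without passing it. The interferon-gamma-induced CXCR3 ligands Cxcl9 and Cxcl10 differed by 0.71 and 1.39 on the log2 scale, with limma adjusted p of 0.0679 and 0.0763. Ccl5 (RANTES), a product of T cells and natural killer cells, differed by 2.73 with a limma adjusted p of 0.0782. For Cxcr4 and Cxcl13 the differences were 1.80 and 2.51 (limma adjusted p = 0.0959 and 0.0981). Without AngII libraries 3, 4 and 5 these differences were 0.46 for Cxcl9, 0.28 for Cxcl10, 0.25 for Ccl5, 0.31 for Cxcr4 and -0.06 for Cxcl13, so that the sign of Cxcl13 turned. Ackr4 differed by 0.82 (limma adjusted p = 0.0782), and by 0.65 without those libraries. Ccl21a, Ccl21b, Ccl21c and Ccl21d differed by 2.22, 1.65, 1.14 and 1.73 (limma adjusted p = 0.159, 0.107, 0.121 and 0.114). Without those libraries they differed by -0.05, 0.19, 0.02 and 0.21. Ackr3 and Cx3cl1 had negative differences of -0.66 and -0.39 (limma adjusted p = 0.233 and 0.361), which without those libraries were 0.22 for Ackr3, its sign turned, and -0.44 for Cx3cl1.

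The AngII and Sham libraries did not overlap for 2 of the 31 genes, Ackr2 and Ccr2, both higher in AngII, and for none in the other direction. Ackr2 was at 1 FPKM or more in 5 libraries only, AngII + RvE1 library 4 and every AngII library but 2. It thus passed the filter only through the group where it was high, and its result is a description. Over all tested genes this held for 2.92% higher and 0.778% lower. Ccr2, the receptor by which inflammatory monocytes leave the marrow and enter tissue, measured 1.02, 0.700, 0.834, 1.08 and 0.612 FPKM in AngII + RvE1, 1.24, 1.73, 22.0, 2.58 and 3.30 FPKM in AngII, and 0.430, 1.02, 1.04, 1.06 and 0.401 FPKM in Sham. All 5 AngII libraries exceeded all 10 others, library 3 by the widest margin. The limma adjusted p was 0.0852 for AngII against Sham (log2 difference 1.40 ± 0.46, SE), and without AngII libraries 3, 4 and 5 the difference was 0.49. For Ackr2 it was 0.60 with all libraries and 0.33 without them.

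**Figure D2:**
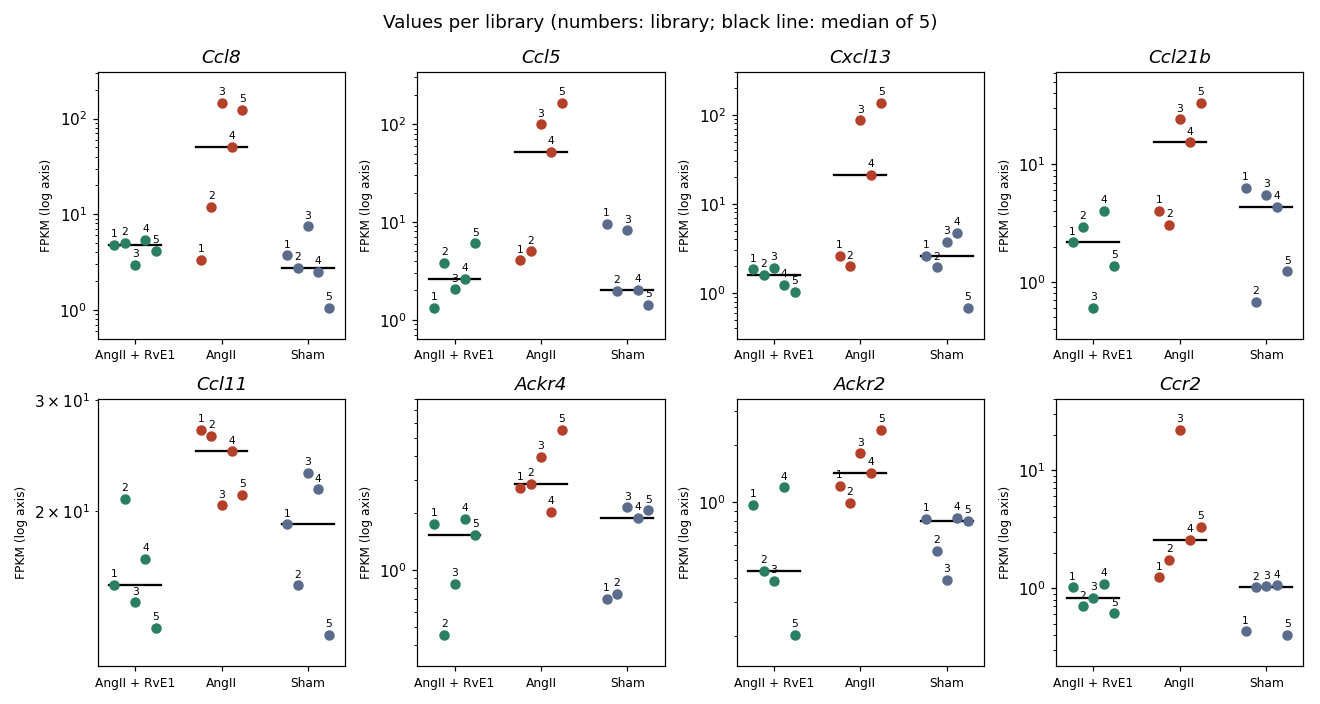
FPKM on log axes for the 7 genes called in a comparison and for Ccr2, with 1 point per library numbered within its group, AngII + RvE1, AngII and Sham from left to right, and a line at each median. Ccl8, Ccl5, Cxcl13 and Ccl21b split the AngII group, with libraries 3, 4 and 5 high and 1 and 2 low, whereas Ccl11 was highest in AngII libraries 1 and 2 (26.9 and 26.3 FPKM).

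The effect of resolvin E1 during the infusion was read from AngII + RvE1 against AngII. Of the 31 genes, 7 were called lower in AngII + RvE1: the ligands Ccl8, Ccl5, Cxcl13, Ccl21b and Ccl11 and the atypical receptors Ackr4 and Ackr2. None was called higher by limma, and 1 (Cx3cl1) was higher at an unadjusted p under 0.05, against 16 lower, where 9.85% of all tested genes were higher and 19.1% lower at that unadjusted threshold. Of all tested genes, 4.31% were called lower and 4.21% higher. The median log2 difference was -0.79 over the 31 genes and -0.11 over all. The same AngII libraries serve both this comparison and the one with Sham, so the results are not independent. Adjusted p values of the 7 lay between 0.0386 and 0.0483, all close to the threshold.

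Ccl5 measured 1.33, 3.84, 2.06, 2.61 and 6.07 FPKM in AngII + RvE1, 4.06, 5.01, 99.4, 52.2 and 166 FPKM in AngII, and 9.51, 1.98, 8.19, 2.03 and 1.43 FPKM in Sham. AngII libraries 1 and 2 fell among the other groups and the remaining AngII libraries far above. The log2 difference of AngII + RvE1 from AngII was -2.98 ± 0.86 (SE, limma adjusted p = 0.0451). Cxcl13, the follicular ligand that draws CXCR5-bearing B cells, measured 1.83, 1.60, 1.90, 1.22 and 1.03 FPKM in AngII + RvE1, 2.63, 1.98, 86.5, 21.2 and 137 FPKM in AngII, and 2.62, 1.94, 3.73, 4.69 and 0.680 FPKM in Sham. The groups AngII + RvE1 and AngII did not overlap, though AngII library 2 exceeded the highest AngII + RvE1 value only slightly. Its log2 difference was -2.97 ± 0.87 (SE, limma adjusted p = 0.0468). For Ccl8 the difference was -2.71 ± 0.76 (SE, limma adjusted p = 0.0425).

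Ccl21b measured 2.17, 2.94, 0.604, 4.04 and 1.37 FPKM in AngII + RvE1, 4.02, 3.06, 24.05, 15.4 and 33.4 FPKM in AngII, and 6.34, 0.678, 5.53, 4.33 and 1.24 FPKM in Sham. AngII + RvE1 library 4 overlapped AngII libraries 1 and 2. The log2 difference was -2.05 ± 0.59 (SE, limma adjusted p = 0.0465), and those of Ccl21c, Ccl21d and Ccl21a were -1.44, -2.12 and -3.00 with limma adjusted p of 0.0508, 0.0511 and 0.0637. Without AngII libraries 3, 4 and 5 they were -0.33, -0.61 and -0.72. Ccl21a and Ccl21b matched at all but 2 of 402 coding bases, and the coding sequences of Ccl21c and Ccl21d were not compared. The adjusted p values of the 4 copies lay between 0.0465 and 0.0637, so that only Ccl21b was called does not set it apart. The 4 copies together summed to 10.6, 16.3, 2.87, 23.5 and 8.12 FPKM in AngII + RvE1, 19.2, 18.0, 224, 125 and 334 FPKM in AngII, and 42.6, 2.85, 54.1, 27.6 and 6.19 FPKM in Sham. Gm13304 and Gm10591, whose coding sequences are identical to that of Ccl21b and which the symbol rule does not take, are left out of that sum. With them it was 17.1, 26.9, 4.39, 38.4 and 12.7 FPKM in AngII + RvE1, 32.4, 29.3, 318, 188 and 466 FPKM in AngII, and 65.3, 4.85, 74.8, 47.0 and 9.95 FPKM in Sham. Either way AngII libraries 3, 4 and 5 were the highest. Neither sum holds Gm21541, whose coding sequence is also identical to that of Ccl21b, or Gm1987, a further copy whose coding sequence was not compared. Gm1987 was above Ccl21a in every library, at 12.4, 14.3, 210, 116 and 325 FPKM in AngII. It measured 1.96 to 17.0 FPKM in AngII + RvE1 and 1.71 to 53.4 FPKM in Sham.

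Ccl11 differed from these in its pattern over libraries. It measured 15.3, 20.9, 14.3, 16.8 and 13.1 FPKM in AngII + RvE1, 26.9, 26.3, 20.4, 24.9 and 21.2 FPKM in AngII, and 19.1, 15.3, 23.0, 21.7 and 12.7 FPKM in Sham. AngII libraries 1 and 2 were the highest of all 15, and a single AngII + RvE1 library, 2, reached into the AngII range. The log2 difference of AngII + RvE1 from AngII was -0.56 ± 0.16 (SE, limma adjusted p = 0.0483), and with AngII libraries 3, 4 and 5 left out it was -0.71 (limma adjusted p = 0.330).

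Both called receptors are scavengers. Ackr4 removes CCL19, CCL21 and CCL25, and it measured 1.75, 0.451, 0.844, 1.87 and 1.53 FPKM in AngII + RvE1, 2.72, 2.85, 3.98, 2.02 and 5.51 FPKM in AngII, and 0.704, 0.747, 2.14, 1.88 and 2.06 FPKM in Sham. Every AngII library exceeded every AngII + RvE1 library, and the log2 difference was -0.94 ± 0.26 (SE, limma adjusted p = 0.0386). Ackr2, which removes inflammatory CC chemokines and is known from lymphatic endothelium, measured 0.972, 0.437, 0.389, 1.20 and 0.202 FPKM in AngII + RvE1, 1.22, 0.996, 1.80, 1.43 and 2.39 FPKM in AngII, and 0.820, 0.558, 0.394, 0.828 and 0.800 FPKM in Sham. AngII library 2 lay below AngII + RvE1 library 4, so these groups overlapped, and the log2 difference was -0.66 ± 0.18 (SE, limma adjusted p = 0.0417). Ackr2 passed the filter only through the AngII group, so its call is a description. Lymphatic endothelium markers moved the same way, with 3 of their 4 tested genes called lower (Lyve1 -1.45, Flt4 -1.10, Mmrn1 -1.66, and -0.83, -0.58 and -1.09 without AngII libraries 3, 4 and 5) and a summed level of 9.46 to 20.6 FPKM in AngII + RvE1, 21.3 to 73.5 FPKM in AngII and 11.4 to 26.9 FPKM in Sham over the 6 listed. Their part in the result was not tested.

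AngII + RvE1 and AngII libraries did not overlap for 5 of the 31 genes, all lower: Ackr4, Cxcl13, Cxcl14, Ccr2 and Ccl6. The shares over all tested genes were 5.23% lower and 5.87% higher. Cxcl14, an epithelial and adipose ligand, had 2.06 to 4.12 FPKM (median 3.31) in AngII + RvE1, 4.51 to 11.6 FPKM (median 5.47) in AngII and 2.26 to 6.42 FPKM (median 4.04) in Sham. Its log2 difference was -0.77 ± 0.24 (SE, limma adjusted p = 0.0588), and -0.53 without AngII libraries 3, 4 and 5. For Ccr2 the difference was -1.34 with all libraries and -0.43 without them, and for Ccl6 it was -1.22 and -0.76.

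The calls in this comparison depended on single libraries. The 7 became 0 without AngII library 3 or 5 or without AngII + RvE1 library 1, 3, 4 or 5, and 1 without AngII library 4 or Sham library 2 or 4 (Ackr4 each time) or without AngII + RvE1 library 2 (Ccl11). They became 12 without AngII library 1 or 2, and 9, 8 and 5 without Sham libraries 1, 3 and 5. Lower calls over all 12603 tested genes moved too, from 543 to 1173 and 1314 without AngII libraries 1 and 2. They were 151 and 54 without AngII libraries 3 and 5, and 82, 172, 66 and 53 without AngII + RvE1 libraries 1, 3, 4 and 5. Without Sham libraries 1, 3 and 5 they were 594, 687 and 421.

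**Figure D3:**
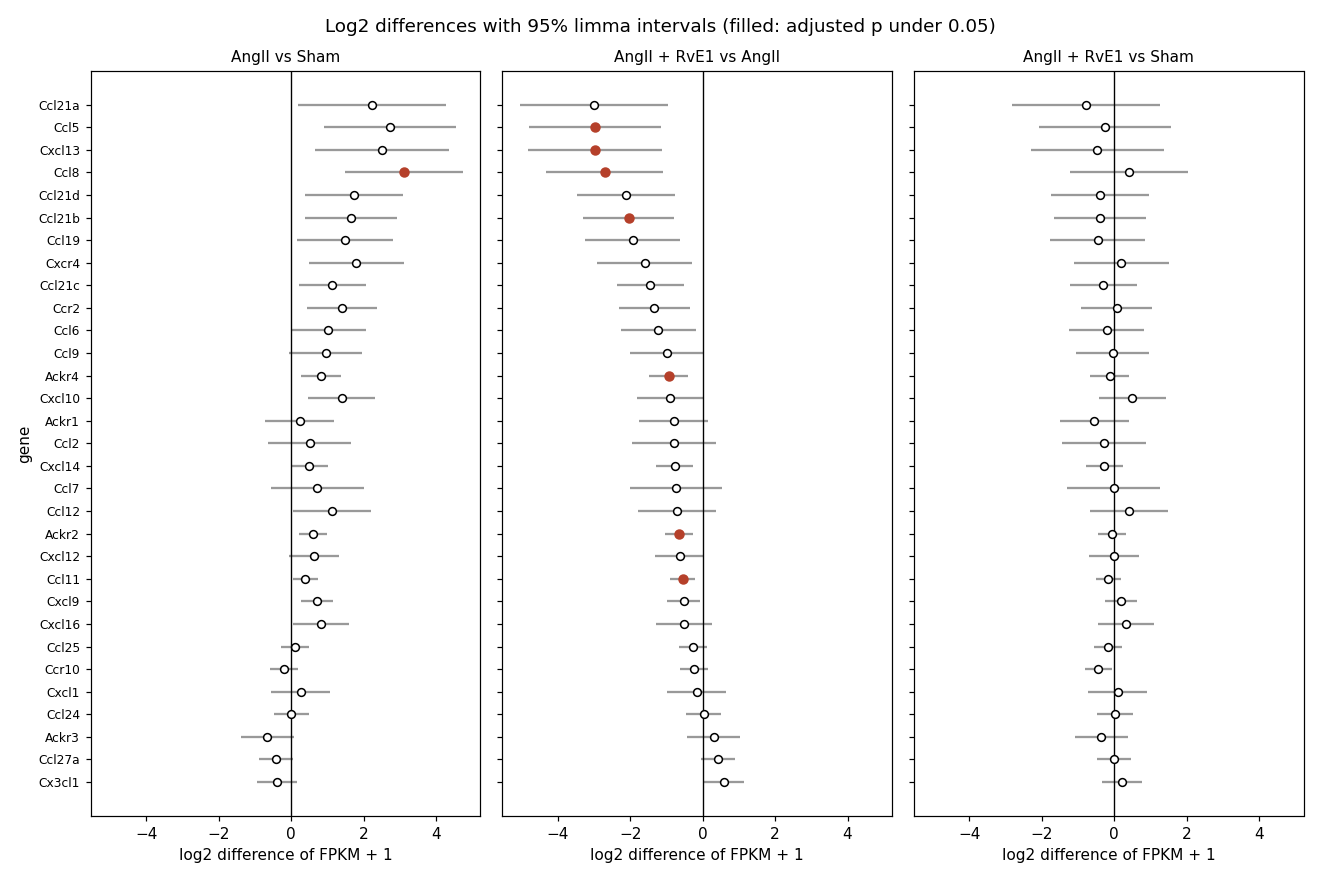
Log2 differences of FPKM + 1 with 95% limma intervals for the 31 tested genes in the 3 comparisons, ordered by the middle panel, with filled points for calls. Ccl8 is filled in AngII against Sham, 7 genes are filled on the lower side in AngII + RvE1 against AngII, and none in AngII + RvE1 against Sham.

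AngII + RvE1 was last set against Sham, to ask how far aortas with both agents lay from aortas with neither. No gene of the 31 was called in either direction by limma, and at an unadjusted p under 0.05 none was higher and 1 was lower (Ccr10), against 4.71% higher and 1.98% lower of all tested genes. Of all tested genes 0.0159% were called higher and 0.00793% lower. The median log2 difference was -0.13 over the 31 genes and 0.01 over all. Ccr10, the receptor of CCL27 and CCL28 on skin-homing T cells, had 0.469 to 0.845 FPKM (median 0.741) in AngII + RvE1, 0.716 to 1.22 FPKM (median 1.02) in AngII and 0.382 to 1.96 FPKM (median 1.68) in Sham, and its log2 difference was -0.44 (limma adjusted p = 0.670). The intervals were wide for the genes that split the AngII group, since 1 spread served all groups: for Ccl8 the difference was 0.41 with a 95% interval of -1.21 to 2.03, and for Cxcl13 it was -0.46 with an interval of -2.31 to 1.38. Values far from 0 were therefore not resolved in either direction.

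The lymphoid axes had their high values in AngII libraries 3, 4 and 5. Cxcr5, the B cell receptor for CXCL13, measured 0.0758 to 0.327 FPKM in AngII + RvE1, 0.169, 0.216, 20.6, 5.80 and 33.1 FPKM in AngII, and 0.103 to 1.18 FPKM in Sham. Ccr7, the receptor for CCL19 and CCL21, measured 0.102 to 0.652 FPKM in AngII + RvE1, 0.506, 0.228, 17.3, 7.40 and 28.4 FPKM in AngII, and 0.205 to 2.37 FPKM in Sham. Neither reached the test, because each was at 1 FPKM or more in fewer than 5 libraries. Library 5 was the highest for both, then library 3, then library 4, and Sham library 3 was the highest outside AngII.

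Ccl19, the second CCR7 ligand, followed the same order, with 25.3, 19.7 and 33.6 FPKM in AngII libraries 3, 4 and 5, against 2.10 and 2.66 FPKM in AngII libraries 1 and 2. In AngII + RvE1 it measured 1.46 to 2.91 FPKM and in Sham 1.21 to 7.85 FPKM, and the log2 difference of AngII + RvE1 from AngII was -1.94 (limma adjusted p = 0.0634), but -0.15 without AngII libraries 3, 4 and 5. Cxcr4 measured 1.82 to 4.23 FPKM in AngII + RvE1, 4.35, 2.16, 26.9, 6.59 and 56.0 FPKM in AngII, and 0.990 to 4.85 FPKM in Sham. The log2 difference of AngII + RvE1 from AngII was -1.61 for Cxcr4 (limma adjusted p = 0.105), but -0.12 without those libraries. Ccr6, a receptor of B cells and some T cells for CCL20, reached 7.39, 1.56 and 12.8 FPKM in AngII libraries 3, 4 and 5 and at most 0.145 FPKM in any other library, while its ligand Ccl20 was listed at 0 in all libraries but AngII library 4 (0.191 FPKM). Receptor values without those of the ligand were thus seen for this pair.

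Ligands and receptors of T cells and dendritic cells had the same shape. Cxcr3, the receptor of CXCL9 and CXCL10 on effector T cells, reached 5.79, 3.21 and 9.18 FPKM in AngII libraries 3, 4 and 5 and at most 0.611 FPKM elsewhere. Ccl22, a dendritic cell ligand of CCR4, reached 8.25, 3.43 and 15.6 FPKM there and at most 0.649 FPKM elsewhere. Cxcl9 itself was more even, at 4.63 to 8.76 FPKM in AngII + RvE1, 7.32 to 11.7 FPKM in AngII and 3.54 to 7.61 FPKM in Sham. Lower still, Xcl1 and its receptor Xcr1, which marks cross-presenting dendritic cells, reached 3.23 and 1.32 FPKM at most, and Ccr4, Ccr8 and Ccr3 stayed under 0.4 FPKM in every library.

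Counted over genes, 27 of the 60 with any value above 0 were higher in each of AngII libraries 3, 4 and 5 than in any of the other 12 libraries, against 12% of the 26187 such genes in the table. Among tested genes it was 13 of 31, against 15% of all tested genes. These 3 libraries were picked for standing apart, so the counts are a description. The highest value of a gene fell in AngII library 3 for 26 genes and in AngII library 5 for 21.

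Cell type markers moved with these genes. T cell markers (9 genes found) summed to 147, 71.2 and 228 FPKM in AngII libraries 3, 4 and 5, against 1.82 to 9.68 FPKM in AngII + RvE1, 4.79 and 2.70 FPKM in AngII libraries 1 and 2, and 1.10 to 34.6 FPKM in Sham. B cell markers summed to 4.69 to 8.01 FPKM in AngII + RvE1, 9.84 and 4.14 FPKM in AngII libraries 1 and 2, and 2.96 to 40.3 FPKM in Sham. Lymph node stroma markers (6 genes) summed to 135, 57.2 and 201 FPKM in AngII libraries 3, 4 and 5. The sums were 1.78 and 2.04 FPKM in AngII libraries 1 and 2. They were 1.22 to 1.67 FPKM in AngII + RvE1 and 0.965 to 16.8 FPKM in Sham. Of these 6 genes, Fcer2a and Cr2 are also on the B cell list and so count in both sums. They measured 51.2 and 10.1 FPKM in AngII library 3 and 80.2 and 17.7 FPKM in AngII library 5. Glycam1 is in the stroma sum as well. The others, Bst1, Madcam1 and Tnfsf11, measured 11.6, 3.74 and 2.68 FPKM in AngII library 3. Each was higher in AngII libraries 3, 4 and 5 than in any other library. Glycam1, a product of the high endothelial venules of lymph nodes that is named here after its values were seen, was listed at 0 in all AngII + RvE1 libraries and in 4 Sham libraries. It measured 0.0883, 0.135, 55.4, 35.0 and 85.5 FPKM in AngII libraries 1 to 5 and 13.6 FPKM in Sham library 3. Dendritic cell markers (7 genes, of which Xcr1 is also a chemokine receptor) summed to 6.49 to 7.97 FPKM in AngII + RvE1, 7.27 to 45.9 FPKM in AngII and 6.55 to 7.99 FPKM in Sham. None of these lists had a gene at 0 in all libraries, and their part in the chemokine results was not tested. Whether lymph node tissue was part of the samples behind AngII libraries 3, 4 and 5 and Sham library 3 is not stated in the labels and was not tested.

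**Figure D4:**
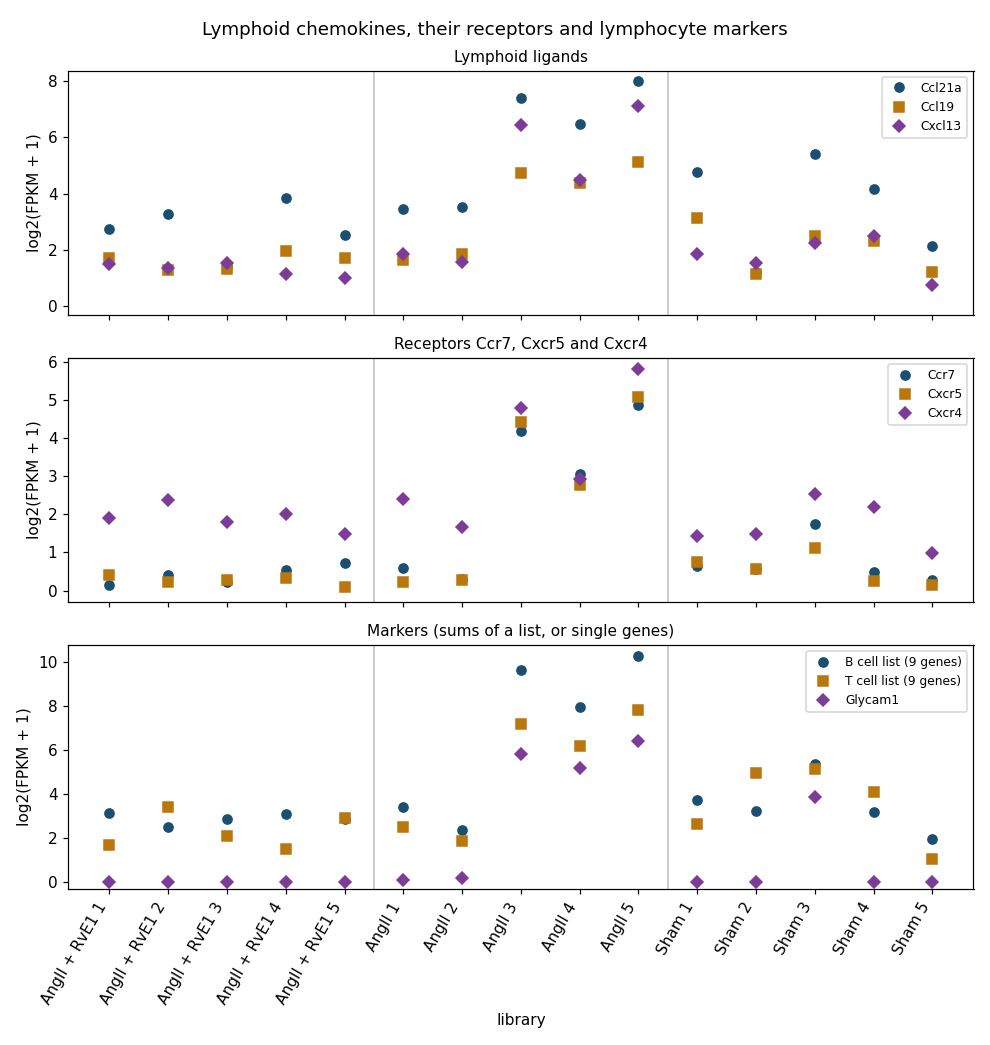
Log2(FPKM + 1) per library for lymphoid ligands (top), receptors (middle) and marker sums with Glycam1 (bottom), AngII + RvE1, AngII and Sham from left to right. All 9 series are highest in AngII libraries 3, 4 and 5, with library 5 above library 3 and library 4 lowest of the 3.

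A further group of genes was high in AngII library 3 alone. Ccl6 measured 19.7, 16.6, 17.2, 17.3 and 18.3 FPKM in AngII + RvE1, 23.1, 40.9, 247, 26.6 and 22.3 FPKM in AngII, and 17.6, 15.2, 23.9, 25.4 and 22.9 FPKM in Sham. Ccl9, a related macrophage ligand, had 76.2 FPKM in AngII library 3 and 4.54 to 13.9 FPKM in all others. The monocyte attractants Ccl2 and Ccl7 had 24.04 and 34.2 FPKM in that library, against 1.32 to 3.09 FPKM and 1.51 to 3.81 FPKM in the other AngII libraries. In AngII + RvE1 they ranged over 0.683 to 4.34 FPKM and 1.24 to 6.04 FPKM, and in Sham over 1.21 to 6.47 FPKM and 0.891 to 7.19 FPKM. Neither was called, the log2 difference of AngII from Sham for Ccl2 being 0.51 (limma adjusted p = 0.586) with all libraries and -0.25, with its sign turned, without AngII libraries 3, 4 and 5.

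Among genes not tested, the macrophage ligands Ccl3 and Ccl4 reached 9.69 and 4.13 FPKM in AngII library 3, and Ccr1, a receptor of CCL3, reached 13.4 FPKM. The neutrophil attractants Cxcl2, Cxcl3 and Cxcl5 reached 2.01, 1.74 and 3.12 FPKM there and stayed under 0.45 FPKM elsewhere. Their receptor Cxcr2 measured 6.65 FPKM in AngII library 3 and 3.08 FPKM in library 5. Neutrophil markers (6 genes) summed to 259 FPKM in AngII library 3, and to 5.58 to 23.7 FPKM in AngII + RvE1, 5.75 to 31.7 FPKM in the other AngII libraries and 4.97 to 38.3 FPKM in Sham. The sum in AngII library 3 came from S100a8, S100a9 and Csf3r (128, 94.9 and 34.6 FPKM), with Elane at 1.43 FPKM. Ly6g and Mpo were not raised there, at 0 and 0.0188 FPKM, and were at most 0.354 and 0.445 FPKM in any library. Macrophage and monocyte markers (10 genes) summed to 236 to 309 FPKM in AngII + RvE1, to 236, 492, 2948, 625 and 1228 FPKM in AngII libraries 1 to 5, and to 194 to 320 FPKM in Sham. Of these 10, Cd163, Cd68, Csf1r, Ly6c2 and Mrc1 were called lower in AngII + RvE1 against AngII and C1qa, C1qb and Cd163 higher in AngII against Sham. Their part in the chemokine values was not tested.

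Genes that lie side by side did not all share 1 pattern, though many of them were highest in AngII library 3. Ccl2, Ccl7, Ccl11, Ccl12, Ccl8 and Ccl1 lie together at chr11:82035577-82179812 (GRCm38), and Ccl5, Ccl9, Ccl6, Ccl3 and Ccl4 at chr11:83525778-83664683. In the first cluster Ccl8 was high in AngII libraries 3, 4 and 5, Ccl2 and Ccl7 in library 3, Ccl11 in no single library, and Ccl1 was at 0 but for AngII library 5 (0.586 FPKM). Ccl12, a rodent CCR2 ligand, had 0.973 to 5.14 FPKM in AngII + RvE1, 0.833 to 16.04 FPKM in AngII and 0.364 to 1.85 FPKM in Sham. In the second cluster Ccl5 was highest in AngII library 5 and Ccl6, Ccl9, Ccl3 and Ccl4 in AngII library 3. Of the first cluster, Ccl2, Ccl7, Ccl8 and Ccl12 were also highest in AngII library 3.

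No difference was called for the remaining tested ligands. Ccl24 (eotaxin-2) had 2.30 to 4.93 FPKM in AngII + RvE1, 1.48 to 4.65 FPKM in AngII and 2.40 to 4.61 FPKM in Sham. Ccl27a, a ligand of CCR10, had 9.18 to 16.6 FPKM in AngII + RvE1, 5.18 to 12.6 FPKM in AngII and 9.93 to 15.1 FPKM in Sham, with the lowest values in AngII libraries 3 and 5. Cx3cl1 (fractalkine), the membrane-bound ligand of endothelium and muscle, measured 4.87, 4.98, 3.46, 6.75 and 7.55 FPKM in AngII + RvE1, 2.50, 3.70, 4.91, 2.73 and 2.65 FPKM in AngII, and 9.09, 3.39, 2.56, 5.52 and 3.93 FPKM in Sham. Its positive log2 difference of AngII + RvE1 from AngII, 0.59, did not pass the test (limma adjusted p = 0.144), and its receptor Cx3cr1 was highest in AngII library 3 (6.89 FPKM). Cxcl16, the scavenger-receptor ligand of CXCR6, had 4.97 to 8.74 FPKM in AngII + RvE1, 3.73 to 24.4 FPKM in AngII and 3.73 to 9.83 FPKM in Sham. Cxcl1 had 0.125 to 3.53 FPKM, 0.821 to 3.67 FPKM and 0.380 to 3.63 FPKM in AngII + RvE1, AngII and Sham, and Ccl25 0.618 to 1.99 FPKM, 1.96 to 2.29 FPKM and 1.11 to 2.63 FPKM in the same groups.

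The last untested genes were low. Ccl17, a CCR4 ligand, reached 2.48, 0.932 and 2.42 FPKM in AngII libraries 3, 4 and 5 and at most 0.437 FPKM elsewhere. Cxcr6, the receptor for CXCL16 on T cells, reached 3.37, 1.62 and 3.53 FPKM in them and at most 0.749 FPKM elsewhere. Ccr9, the receptor for CCL25 known from thymocytes and gut-homing T cells, was unlike these, with its highest value in Sham library 2 (1.23 FPKM) and 0.519, 0.202 and 0.775 FPKM in AngII libraries 3, 4 and 5. T cell markers summed to 30.0 FPKM in that Sham library, second in the group to library 3 (34.6 FPKM). Ccl27b lay between 0.258 and 1.44 FPKM over all 15 libraries. Ccl28, Cxcl15, Cxcl17 and Cxcr1 reached at most 0.257, 0.384, 0.470 and 0.293 FPKM.

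The atypical receptor Ackr3 ran the other way from the lymphoid genes in AngII libraries 3, 4 and 5, but not in Sham library 3. It measured 42.9, 54.7, 31.8, 59.4 and 41.3 FPKM in AngII + RvE1, 56.7, 80.3, 14.8, 29.1 and 31.4 FPKM in AngII, and 53.7, 53.9, 81.6, 52.2 and 52.0 FPKM in Sham. The 3 lowest values of all 15 libraries were those of AngII libraries 3, 4 and 5, although no difference was called, and the log2 difference of AngII + RvE1 from AngII was 0.30 with all libraries and -0.58 without those 3. Sham library 3, with the highest B cell marker sum outside AngII (40.3 FPKM), had the highest Ackr3 value of all 15 libraries (81.6 FPKM). Smooth muscle markers were also low in AngII, with 8 of 9 called higher in AngII + RvE1 (median log2 difference 1.81) and 1 called lower in AngII against Sham. Without AngII libraries 3, 4 and 5 none of these was called, and the 8 differences were 1.05 to 1.76, against 1.10 to 2.21 with all libraries. The marker sums were 2018.5 and 3435 FPKM in AngII libraries 1 and 2 and 1775 FPKM in Sham library 3. Ackr3 was at 56.7, 80.3 and 81.6 FPKM in these libraries. The part of smooth muscle in the value of Ackr3 was not tested. Ackr1, the chemokine-binding receptor of venules and red cells, had 0.288 to 2.02 FPKM in AngII + RvE1, 0.462 to 10.1 FPKM in AngII and 0.331 to 2.60 FPKM in Sham. Blood endothelium markers (7 genes), by comparison, summed to 168 to 303 FPKM, 229 to 320 FPKM and 114 to 333 FPKM in AngII + RvE1, AngII and Sham, and red cell markers (5 genes) to 28048 to 78367 FPKM, 7580 to 44168 FPKM and 5346 to 19674 FPKM.

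Leaving out AngII libraries 3, 4 and 5 together ended every call. With 12 libraries, 0 of the 31 genes were called in each comparison by limma, and those with an unadjusted p under 0.05 numbered 3 in AngII against Sham, 4 in AngII + RvE1 against AngII and 1 in AngII + RvE1 against Sham. Calls over all tested genes numbered 22, 6 and 5 in the same order, against 400, 1074 and 3 with all libraries, with only 2 AngII libraries in the fit. The median difference of AngII + RvE1 from AngII was then -0.30 over the 31 genes. Ccl8, Ccl5, Ccl21b and Cxcl13 had differences of -0.48, -0.51, -0.59 and -0.40 in place of the values near -2 to -3 above, while Ackr4, Ackr2 and Ccl11 had -0.77, -0.40 and -0.71, against -0.94, -0.66 and -0.56 with all libraries. The median SE of the 31 genes was 0.33, against 0.43 with all libraries.

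**Figure D5:**
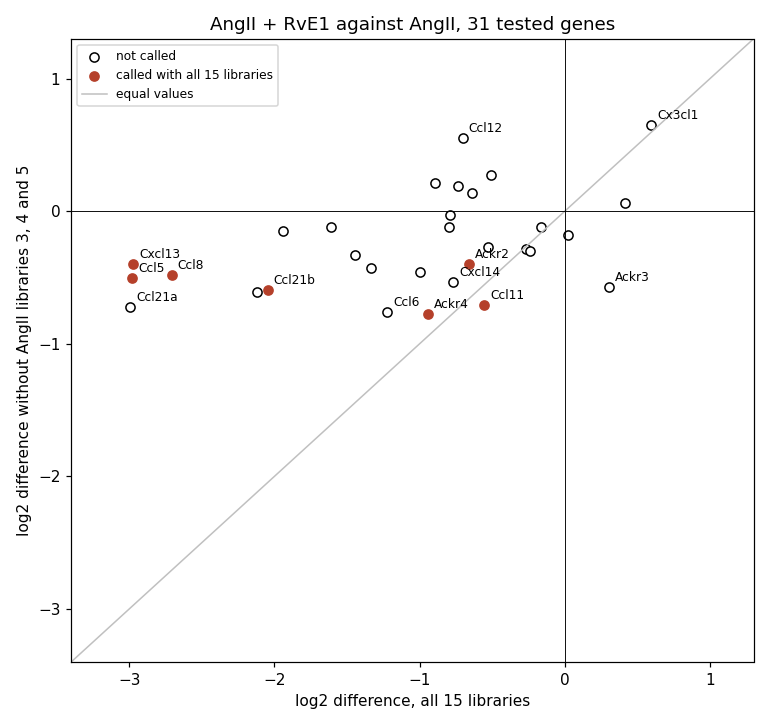
Log2 difference of AngII + RvE1 from AngII for the 31 tested genes with all 15 libraries (horizontal) and without AngII libraries 3, 4 and 5 (vertical), with filled points for the 7 genes called with all libraries and a grey line of equal values. Ccl8, Ccl5, Cxcl13 and Ccl21b lie far above the line, and Ackr4 and Ccl11 near it.

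Genes that act with chemokines but carry other names were counted as well. Of 20 listed (among them Rarres2 and its receptor gene Cmklr1, which also encodes the RvE1 receptor ChemR23, and signalling parts such as Dock2), 19 were tested. One, Cd74, the invariant chain and receptor of the cytokine MIF, was called higher in AngII against Sham (log2 difference 2.41, limma adjusted p = 0.0465). Called lower in AngII + RvE1 against AngII were Cd74 (-2.35), Arrb2 (-1.40), which encodes a beta-arrestin that internalises receptors, and Gpr182 (-1.63), a chemokine scavenger of sinusoidal and lymphatic endothelium. Of 20 listed inducers of chemokine transcription, 16 were tested, and 3 were called higher in AngII against Sham, among them Ifngr1, a chain of the interferon-gamma receptor (0.78), and Irf7, a transcription factor of the interferon response (1.70). The same 3 were called lower in AngII + RvE1 against AngII (-0.78 for Ifngr1 and -1.39 for Irf7), with the AngII libraries in common. Ifngr1 measured 34.9, 35.7, 31.6, 31.2 and 40.1 FPKM in AngII + RvE1, 52.8, 43.8, 79.7, 59.7 and 70.3 FPKM in AngII, and 36.9, 29.1, 31.4, 40.9 and 35.3 FPKM in Sham, so that all 5 AngII libraries exceeded all others. Without AngII libraries 3, 4 and 5 none of these genes was called, and the differences of AngII + RvE1 from AngII were -0.67 for Cd74, -0.30 for Arrb2, -0.78 for Gpr182, -0.47 for Ifngr1 and -0.52 for Irf7. Those of AngII from Sham were then 0.73 for Cd74, 0.47 for Ifngr1 and 0.83 for Irf7. None of either list was called in AngII + RvE1 against Sham.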

How the data were processed

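The deposited table gives 34714 gene symbols and 1 value for each of 15 libraries. No unit is named, and the deposited values were treated as FPKM: they have decimals, columns sum to between 385846 and 514281, and low values do not step by single reads, so no count test was run and TPM over a wider gene set cannot be told apart from FPKM. Per the labels' protocols, RNA was extracted with an RNeasy kit and libraries were made with a SMARTer mRNA kit. The build is mm10, per the submitters' processing notes. Aligner, quantifier and annotation were not given in the sources used here. Every column was matched to a sample by its title.

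Genes at 1 FPKM or more in at least 5 libraries (12603 of 26187 above 0) were fitted by limma-trend (limma 3.58.1, R 4.3.3) on log2(FPKM + 1), with 1 mean per group over all 15 libraries. The 3 contrasts were tested two-sided with Benjamini-Hochberg adjustment over all tested genes at 0.05. The added 1 understates changes of low genes. The procedure was tested on simulated data. Genes were named if called, if on a fixed list of ligand and receptor axes, or if among the 5 largest differences each way. Members, lists and rules were chosen with earlier results of these data known. Alternatives were an added value of 0.1, no filter, only the groups compared, replicate numbers as a block, median-ratio rescaling, array weights, a minimum fold of 1.5, AngII libraries 3, 4 and 5 left out, and each library left out in turn. Coordinates are from RefSeq (GRCm38.p6) and, for Ccl21a and Ccl21b, GENCODE, and promoters from RefSeq. Tables were joined in Python 3.11.15. Some genes are not reported here by name, though they count in every total.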

Additional observations from a re-analysis of the deposited data

Results flagged for a closer look

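Of 93 groups of 5 libraries checked (31 genes in 3 groups), 15 had a library that lay far from the other 4. The check used untransformed FPKM, and the genes share their libraries. A chance rate of about 1 in 20 would need normally distributed values and independent checks, so the 15 are not set against it. In AngII, library 3 was the high one each time, with Ackr1 at 10.1, Ccl12 at 16.04, Ccl2 at 24.04, Ccl6 at 247.1, Ccl7 at 34.2, Ccl9 at 76.2, Ccr2 at 22.0 and Cxcl14 at 11.6 FPKM. In AngII + RvE1, library 1 was high for Ccl12 (5.14 FPKM) and Ccl7 (6.04 FPKM), and library 4 was low for Ccl25 (0.618 FPKM). In Sham, library 4 was high for Ccl2 (6.47 FPKM) and Ccl7 (7.19 FPKM), and library 3 was high for Ackr3 (81.6 FPKM) and Ccl24 (4.61 FPKM).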

How the results depend on the processing

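The call of Ccl8 in AngII against Sham (1 gene higher) held with an added value of 0.1 and with rescaled libraries. It became 0 genes without the filter, with only the groups compared, with replicate numbers as a block, with AngII libraries 3, 4 and 5 left out and with a minimum fold of 1.5, and 14 genes with array weights, which give the more variable libraries less say. Those weights were 6.35 for AngII library 4 and 0.370 to 0.706 for the other AngII libraries. Within AngII, every count with array weights thus rests mostly on library 4. Leaving out each library gave 0 to 12 genes. Over all 12603 tested genes, 298 were called higher, against 2104 with array weights, 30 with only the groups compared and 72 with the block. They numbered 20 without AngII libraries 3, 4 and 5, 2 with a minimum fold of 1.5 and 122 of 26187 without the filter. Leaving out each library gave 54 to 1378. In AngII + RvE1 against AngII, the 7 genes called lower became 6 with an added value of 0.1 or rescaled libraries, 2 with only the groups compared (Ackr4 and Ccl11), 16 with array weights, and 0 without the filter, with the block, without AngII libraries 3, 4 and 5 and with a minimum fold of 1.5. Leaving out each library gave 0 to 12. Over all 12603 tested genes, 543 were called lower, against 2967 with array weights, 489 with only the groups compared and 164 with the block. They numbered 6 without AngII libraries 3, 4 and 5, 0 with a minimum fold of 1.5 and 192 of 26187 without the filter. None of the 31 was called higher except 1 (Cx3cl1) with array weights, where 1502 of all tested genes were. Where limma called 0 of the 31 genes under such a setting, 3 to 19 had an unadjusted p under 0.05, and without the filter, where 60 genes were tested, 30 had one in either comparison. No called gene of the 31 changed sign under any alternative, and none of the 31 was called in AngII + RvE1 against Sham. Called genes of the other lists were followed only with AngII libraries 3, 4 and 5 left out. Whether the replicate numbers pair the libraries was not settled. Deviations of same-numbered libraries correlated between -0.414 and 0.521. The block took the called genes to 0, but it adds terms to the fit, and calls so near the threshold can be lost that way. Over all tested genes, calls ranged from 2 to 2821 (400 as reported) in AngII against Sham and from 0 to 4469 (1074) in AngII + RvE1 against AngII. With rescaling the median of all genes in AngII against Sham was -0.01, against 0.11, and the share of calls that were higher was 43.6%, against 74.5%, and in AngII + RvE1 against AngII 63.5%, against 49.4%. Signs of the 31 genes stood at 25 positive and 6 negative in place of 26 and 5 in AngII against Sham, and at 4 and 27 both ways in AngII + RvE1 against AngII. The cause of these shifts was not tested. Read depth is unknown, so low values carry no counting error here.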
